A study of Mus musculus with 6 samples.

Results

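The 36 cell cycle and DNA replication genes described here were each measured by 1 listed probe set among the 45101 on Affymetrix arrays of mouse bone-marrow neutrophils, 3 arrays from miR-223 null mice and 3 from wild-type mice. They were listed by name for their role in copying DNA and in mitosis, with earlier results of these data known, and the pairing of probe set and gene follows the list that defines them. The cells came straight from the animals, without culture, by selection with an antibody to Gr-1 on magnetic columns. For the strain, age and sex of the mice and the design of the null allele the labels used here give nothing. They also do not say whether replicates are separate animals, so each p-value reflects sample-to-sample spread that can be partly technical.

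Neutrophils stop dividing part of the way through their development. Early granulocyte precursors in the marrow copy their DNA and divide, whereas maturing and mature neutrophils have left the cell cycle and no longer make the transcripts of replication and mitosis. The replication genes are switched on first, by E2F factors, as a cell enters S phase. The genes of mitosis follow later, through a complex of B-Myb, FoxM1 and MuvB that acts at a short promoter element called CHR (cell cycle genes homology region), often beside CCAAT boxes bound by NF-Y. In cells that have stopped dividing, the DREAM complex holds both kinds of gene down. The RNA missing in the null mice is miR-223, a myeloid microRNA that represses transcripts paired with its seed. Its main mature strand is encoded on the X chromosome (GRCm38.p6, chrX:96242884-96242905, plus strand) and is shown with the seed, bases 2 to 8, in capitals, as listed by RefSeq.
miR-223-3p: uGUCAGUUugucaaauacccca

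Promoter stretches of 8 of the genes are shown to let these elements be seen in place. They were picked for holding matches and do not stand for the whole list. By the letters given below, the mitosis genes Ccnb1, Birc5, Bub1, Cenpe and Nusap1 had no CHR, while the replication gene Mcm2 did. The stretches come from the RefSeq windows of GRCm38.p6 and run 5′ to 3′ on the strand of the gene. They are counted back from the start site, with −1 the base before it. Capitals mark the elements, each read on either strand. The E2F site was searched as TTTGGCGC, TTTCCCGC, TTTGCCGC or TTTCGCGC. The CCAAT box was searched as its name spells it. The letters of the CHR were TTTGAA. The first 5 belong to genes of mitosis, chromosome structure and the mitotic kinase Cdk1. Cdc20 (chr4:118437344-118437443, minus strand), Ube2c (chr2:164769829-164769928, plus strand), Kif11 (chr19:37376282-37376381, plus strand) and Top2a (chr11:99024190-99024289, minus strand) are given from −100 to −1, and Cdk1 (chr10:69352913-69353052, minus strand) from −140 to −1.
Cdc20: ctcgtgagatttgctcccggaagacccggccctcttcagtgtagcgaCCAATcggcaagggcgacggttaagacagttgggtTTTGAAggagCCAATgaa
Ube2c: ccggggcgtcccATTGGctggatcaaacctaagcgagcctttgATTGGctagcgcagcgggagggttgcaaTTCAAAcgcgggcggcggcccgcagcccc
Kif11: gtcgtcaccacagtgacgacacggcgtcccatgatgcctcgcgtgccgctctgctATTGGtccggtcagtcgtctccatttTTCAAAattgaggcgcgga
Top2a: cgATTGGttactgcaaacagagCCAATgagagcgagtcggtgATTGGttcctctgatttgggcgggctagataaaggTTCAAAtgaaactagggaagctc
Cdk1: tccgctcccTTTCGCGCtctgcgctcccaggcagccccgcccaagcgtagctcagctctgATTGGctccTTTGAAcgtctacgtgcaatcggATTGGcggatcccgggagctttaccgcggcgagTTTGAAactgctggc

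The other 3 belong to genes that prepare and open the replication origin, and hold E2F sites and no CHR. Mcm5 (chr8:75109349-75109448, plus strand) is given from −160 to −61, Mcm6 (chr1:128359726-128359825, minus strand) from −120 to −21 and Cdc6 (chr11:98908001-98908100, plus strand) from −150 to −51. In Mcm5 and in the upstream pair of Mcm6, 2 E2F sites on opposite strands overlap, so that the capitals run together.
Mcm5: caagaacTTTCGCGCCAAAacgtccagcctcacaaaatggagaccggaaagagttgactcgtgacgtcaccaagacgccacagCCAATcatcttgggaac
Mcm6: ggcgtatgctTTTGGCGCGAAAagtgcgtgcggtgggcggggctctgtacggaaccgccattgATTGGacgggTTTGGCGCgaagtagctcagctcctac
Cdc6: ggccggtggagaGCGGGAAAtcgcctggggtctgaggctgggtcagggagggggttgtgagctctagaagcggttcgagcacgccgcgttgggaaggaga

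The arrays had nearly equal distributions, with medians of the log2 values between 4.81 and 4.84. The labels used here name no batch. The arrays were instead cut into 2 technical sets at the widest gap in the brightness of their hybridization controls (0.131, the next 0.050). A cut of this kind always yields 2 sets, so it does not show that a batch exists. Null replicates 1 and 2 formed a brighter set together with wild-type replicate 1, and the other 3 arrays formed a dimmer set. Either set held both groups. Each change is therefore given from the planned fit without a block, from a fit that takes this technical set as a block, and within each set. No table used here pairs other probe sets with genes, so neutrophil stage markers, markers of other cell types, further cell cycle genes and miR-223 itself were not examined, and their part in the results was not tested.

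Of the 9 genes for mitotic kinases, the spindle checkpoint and the end of mitosis, 3 were lower in miR-223 null than in wild-type neutrophils in the fit without a block and 8 once the technical set was a block. Of the 7 genes for the spindle and cytokinesis, 1 was lower without and 7 with the block, and of the 11 genes for replication and deoxynucleotides, 0 passed in either fit. Whether the mitotic and the replication genes differ from each other was not tested. All 36 genes had a lower mean in null samples, with a median difference of −0.94 on the log2 scale, or 1.92-fold higher in wild type, against a median of −0.01 over the 22519 probe sets tested. In the fit without a block, 4 of 36 genes (11.1%) passed the threshold downward and 0 upward (limma, Benjamini-Hochberg over all tested probe sets, adjusted p below 0.05). Over all tested probe sets 1.06% passed downward and 2.78% upward. The genes were Kif11, Ube2c, Aurka and Aurkb. At an unadjusted p under 0.05, 25 of the 36 were lower and 0 higher, against 8.76% and 9.96% of all tested probe sets. When the technical set was added as a block, 21 of 36 (58.3%) passed downward and 0 upward, against 5.38% and 5.57% of all tested probe sets. In a bulk sample, fewer dividing cells and less of each transcript per dividing cell cannot be told apart.

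**Figure D1:**
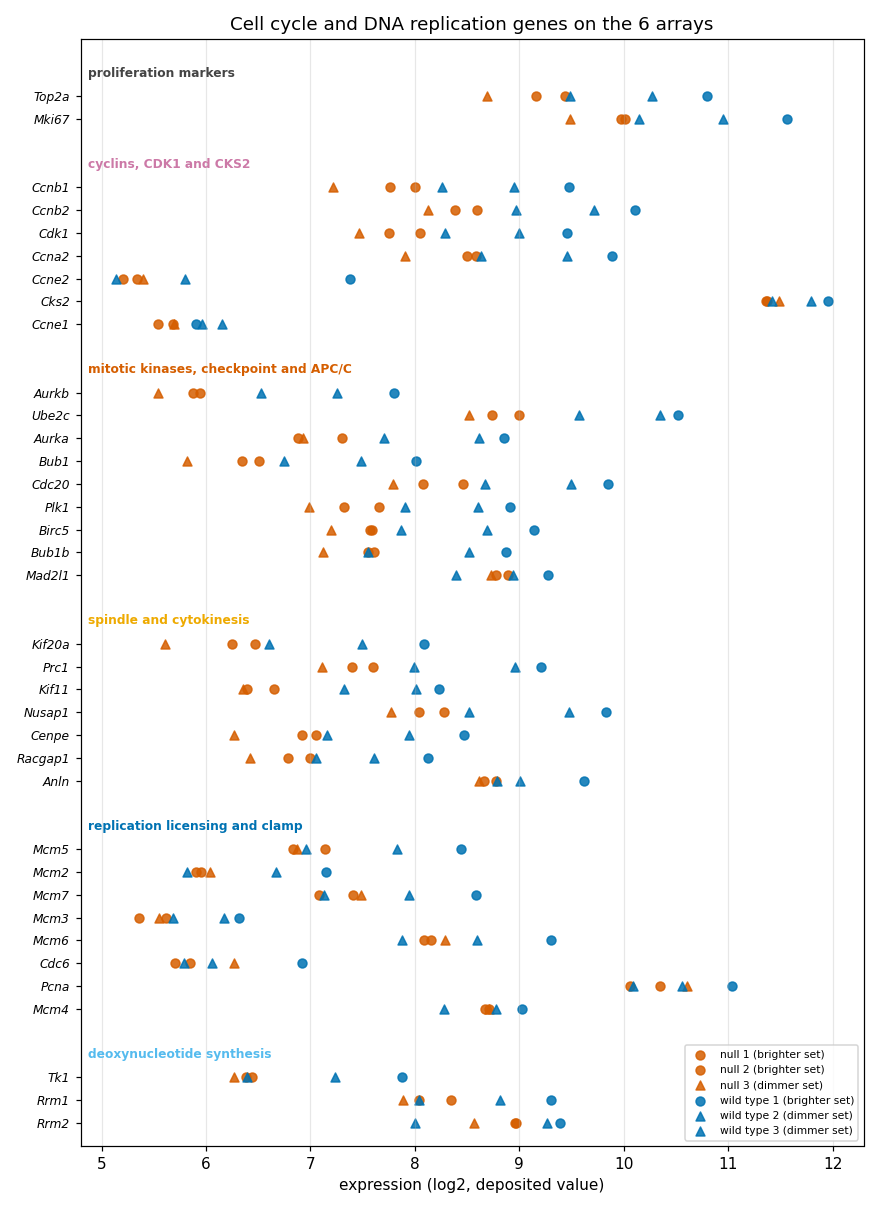
Deposited log2 value (horizontal axis) of each of the 36 genes (rows, grouped by function) on the 3 null (orange) and 3 wild-type (blue) arrays, with circles for the brighter and triangles for the dimmer technical set. In the kinase, checkpoint and spindle groups the blue points lie to the right of the orange ones except for Bub1b and Mad2l1, while in the replication groups wild type 2 lies among or below the null arrays for every gene but Mcm3.

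The count rested on few arrays. Without a block it was 0 when null replicate 1, 2 or 3 was left out, where 0.0533%, 0.102% and 0.302% of all tested probe sets passed downward. It was 1, 21 and 0 without wild-type replicates 1, 2 and 3, against 0.506%, 0.861% and 0.400% of all. With the block it was 16, 17 and 7 without null replicates 1, 2 and 3, against 1.77%, 1.76% and 0.777%, and 0, 31 and 20 without wild-type replicates 1, 2 and 3, against 0.129%, 6.59% and 5.16%. With the block the count over all probe sets thus also fell lowest without wild-type replicate 1 and rose highest without wild-type replicate 2. Leaving out wild-type replicate 1 leaves null replicate 3 against wild-type replicates 2 and 3 as the only comparison within a set. Leaving out null replicate 3 likewise leaves only null replicates 1 and 2 against wild-type replicate 1, and there 7 members still passed. Why the counts differ was not tested. Aurkb, Ccnb1, Ccnb2 and Kif11 passed in 6 of the 7 fits with the block, all but the one without wild-type replicate 1.

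Wild-type samples differed among themselves more than null samples for every one of the 36 genes. The median SD over these genes was 0.637 in wild-type and 0.234 in null samples. Over all tested probe sets it was also larger in wild type, at 0.149 against 0.131. The mean over the 36 genes was 8.96, 7.80 and 8.51 on wild-type replicates 1, 2 and 3, and 7.58, 7.73 and 7.41 on null replicates 1, 2 and 3. The distance between wild-type replicates 1 and 2 thus exceeded the distance between the group means. Wild-type replicate 1 was above all null samples for 36 of 36 genes, wild-type replicate 3 for 34 and wild-type replicate 2 for 22. For these counts, and for the count of genes with a wider wild-type spread, the share of all tested probe sets was not computed. For 35 genes wild-type replicate 1 was the highest of the 6 samples, against 23.1% of all tested probe sets. Wild-type replicate 1 was above replicate 3, and replicate 3 above replicate 2, for 35 of 36 genes, against 18.9% of all tested probe sets. Ccne1 was the exception.

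For 22 of the 36 genes (61.1%) all null values lay below all wild-type values, and for 0 they lay above. The shares over all tested probe sets were 11.8% and 12.8%. Of these 22 genes, 20 also passed with the block, and Mcm3 and Ccne1 did not. Bub1b passed with the block although its null replicate 2 lay above its wild-type replicate 2.

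Mki67 (1426817_AT), which codes for the Ki-67 protein that coats mitotic chromosomes and is used as a marker of dividing cells, was measured at 9.98, 10.01 and 9.48 in null samples and 11.56, 10.15 and 10.96 in wild-type samples (log2, replicates 1 to 3). The groups did not overlap, but wild-type replicate 2 was only just above the highest null sample. Its change was −1.06 with a standard error of 0.33 without the block (limma adjusted p = 0.13), and −1.32 (standard error 0.21) with it, a 2.49-fold higher level in wild type (limma adjusted p = 0.011). Top2a (1454694_A_AT), the topoisomerase that untangles DNA before chromosomes separate, stood at 9.16, 9.44 and 8.69 in null and 10.80, 9.49 and 10.27 in wild-type samples. It had the same order of arrays among the wild-type samples, and its change with the block was −1.34 (limma adjusted p = 0.00943).

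Of the 7 cyclins and their partners, 4 passed downward with the block and 0 without it, against 5.38% and 1.06% of all tested probe sets. Cdk1 (1448314_AT), the kinase that triggers mitosis, was at 7.76, 8.05 and 7.47 in null and 9.46, 8.29 and 8.998 in wild-type samples. Ccnb1 (1448205_AT), which codes for cyclin B1, the main activating partner of Cdk1, was at 7.77, 8.01 and 7.22 in null and 9.48, 8.26 and 8.95 in wild-type samples. In both genes null replicate 3 was the lowest of all samples and wild-type replicate 1 the highest, with no overlap. With the block Cdk1 was 2.58-fold and Ccnb1 2.80-fold higher in wild type (limma adjusted p = 0.00859 and 0.00528). Without it neither passed (limma adjusted p = 0.0734 and 0.0825). Ccnb2 (1450920_AT), for cyclin B2, and Ccna2 (1417910_AT), for cyclin A2, which acts in S phase and at entry into mitosis, changed by −1.42 and −1.25 with the block (limma adjusted p = 0.00775 and 0.0117).

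The E-type cyclins activate Cdk2 at the start of S phase, and neither passed in either of these fits. Ccne1 (1416492_AT) was at 5.68, 5.54 and 5.69 in null and 5.91, 5.96 and 6.16 in wild-type samples. Its groups did not overlap, but the difference of −0.37 was small (limma adjusted p = 0.145). Ccne2 (1422535_AT) was at 5.21, 5.34 and 5.40 in null and 7.38, 5.14 and 5.80 in wild-type samples. Its high wild-type mean came from wild-type replicate 1, while wild-type replicate 2 lay below every null sample (limma adjusted p = 0.462). Cks2 (1417457_AT), a small subunit that binds cyclin-dependent kinases, overlapped between the groups, at 11.36 to 11.49 in null and 11.42 to 11.96 in wild-type samples.

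Of the 9 genes for mitotic kinases, the spindle checkpoint and the machinery that ends mitosis, 3 passed downward without the block and 8 with it. The shares over all tested probe sets were 1.06% without the block and 5.38% with it. Aurkb (1451246_S_AT), the kinase that corrects faulty attachments of chromosomes to the spindle, was at 5.94, 5.88 and 5.54 in null and 7.80, 6.53 and 7.25 in wild-type samples. Every wild-type sample was clearly above every null sample. Its change of −1.41 (standard error 0.30) made wild type 2.65-fold higher (limma adjusted p = 0.0485), and −1.62 with the block, the largest of the 36 genes. Its probe set carries the suffix that Affymetrix gives to sets that may detect more than a single transcript family, as does that of Prc1 (1423775_S_AT), so these values may hold signal of a related transcript. Without the block, Aurkb missed the threshold when any array but wild-type replicate 2 was left out, at changes between −1.49 and −1.10.

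Aurka (1424511_AT), the kinase that matures spindle poles, was at 6.88, 7.30 and 6.93 in null and 8.85, 7.70 and 8.62 in wild-type samples. The gap between the groups was again complete, and the change was −1.35 with a standard error of 0.29 (limma adjusted p = 0.0476). Without the block its call was also lost when any array but wild-type replicate 2 was left out. With the block its adjusted p was 0.0141, and it rose to 0.0502 without null replicate 1, 0.0686 without null replicate 3 and 0.179 without wild-type replicate 1.

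Ube2c (1452954_AT) and Cdc20 (1416664_AT) both serve the anaphase-promoting complex, the ubiquitin ligase that lets sister chromatids part and destroys B cyclins. Ube2c, its ubiquitin-conjugating enzyme, was at 8.74, 8.999 and 8.52 in null and 10.52, 9.57 and 10.34 in wild-type samples. Here even wild-type replicate 2 stood well above the highest null sample. Its change was −1.39 with a standard error of 0.24 (limma adjusted p = 0.0283), and −1.54 with the block (limma adjusted p = 0.00569). Without the block it passed among the single-array omissions only without wild-type replicate 2, and it was at an adjusted p of 0.0543 without wild-type replicate 1. Cdc20, the activator of the complex in mitosis, was at 8.07, 8.46 and 7.79 in null and 9.85, 8.67 and 9.50 in wild-type samples, a change of −1.44 with the block (limma adjusted p = 0.0102).

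The rest of this group passed with the block, with 1 exception. Plk1 (1448191_AT), a kinase needed throughout mitosis, Bub1 (1424046_AT) and Bub1b (1416961_AT), which hold anaphase back until chromosomes are attached, and Birc5 (1424278_A_AT), for survivin, the partner that brings Aurkb to centromeres, changed by −1.35, −1.44, −1.10 and −1.32 with the block (limma adjusted p = 0.00825, 0.00794, 0.0302 and 0.012). None of these passed without it. Mad2l1 (1422460_AT), which codes for the checkpoint protein Mad2, was the exception, at 8.78, 8.89 and 8.73 in null and 9.28, 8.40 and 8.94 in wild-type samples. Wild-type replicate 2 was the lowest sample for this gene, and its change with the block was −0.19 with a standard error of 0.17 (limma adjusted p = 0.559).

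All 7 genes for the spindle and for cytokinesis passed downward with the block, and their groups did not overlap. Over all tested probe sets, 5.38% passed downward with the block and 11.8% had all null values below all wild-type values. Kif11 (1452314_AT), the motor that pushes spindle poles apart, was at 6.40, 6.65 and 6.35 in null and 8.23, 7.32 and 8.01 in wild-type samples. The gap between the highest null and the lowest wild-type sample was wide against the spread of the null samples. It had the smallest adjusted p of the 36 genes without the block, with a change of −1.39 (standard error 0.23) and 2.62-fold higher levels in wild type (limma adjusted p = 0.0237). Of the single-array omissions in that fit, Kif11 passed without wild-type replicate 1 (limma adjusted p = 0.044) and without wild-type replicate 2, and missed without each of the other 4, at adjusted p-values between 0.0662 and 0.113.

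Kif20a (1449207_A_AT), a motor of the late spindle, was at 6.25, 6.47 and 5.61 in null and 8.09, 6.61 and 7.496 in wild-type samples. Wild-type replicate 2 was close to the null range, and the gene passed with the block alone, at −1.59 (limma adjusted p = 0.00877). Prc1, which bundles the microtubules of the spindle midzone, Nusap1 (1416309_AT), which stabilises spindle microtubules, and Cenpe (1435005_AT), a motor at the kinetochore, changed by −1.53, −1.45 and −1.38 with the block (limma adjusted p = 0.011, 0.0128 and 0.00869). The 2 genes that act on the contractile ring of dividing cells were lower by less. They were Racgap1 (1451358_A_AT), at −1.07, and Anln (1433543_AT), for the scaffold anillin, at −0.59 (limma adjusted p = 0.0117 and 0.0433 with the block).

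**Figure D2:**
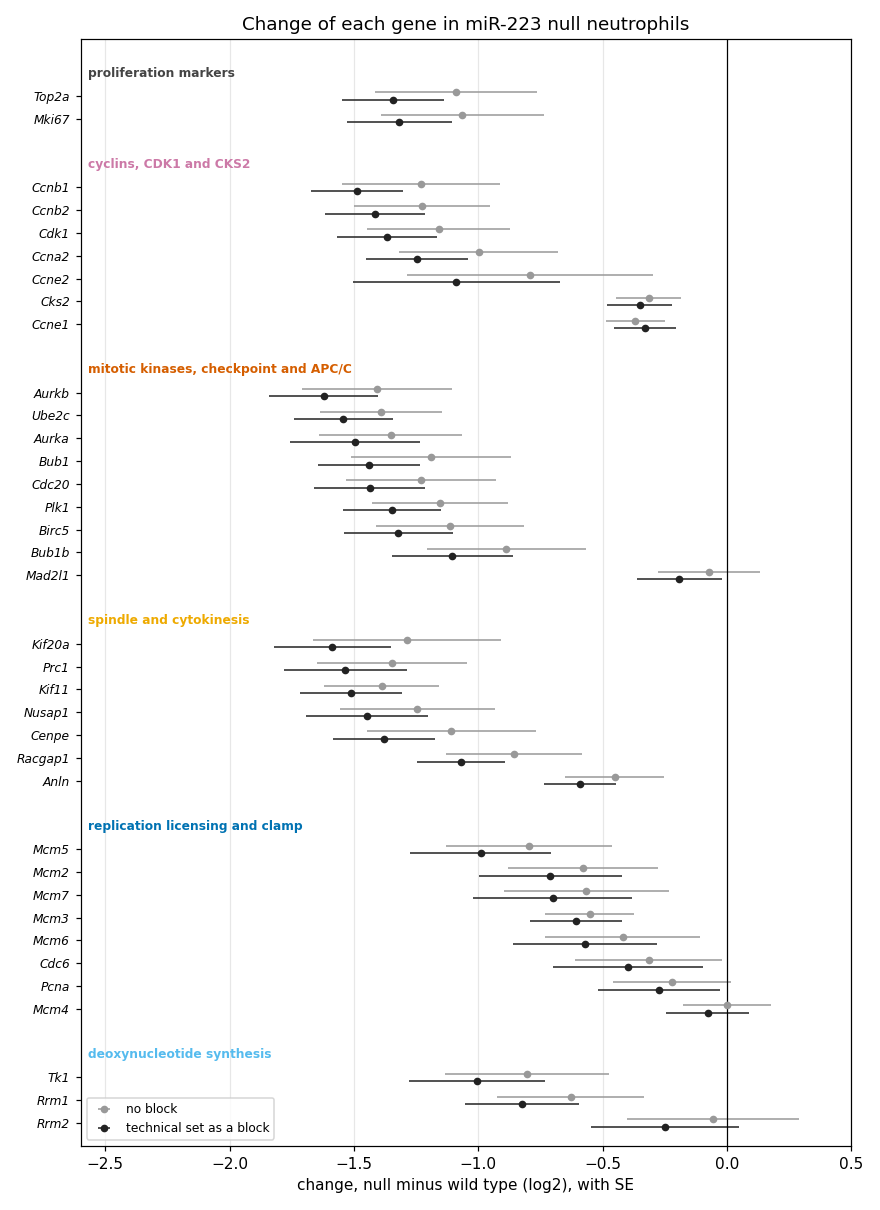
Log2 change, null minus wild type, of each of the 36 genes with its standard error as a bar, without a block (grey) and with the block for the technical set (black). Spindle and mitotic kinase genes lie mostly between −1.0 and −1.6 with the block, and licensing and clamp genes between −0.99 and −0.08.

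None of the 8 genes for replication licensing and the replication clamp, and none of the 3 genes for making deoxynucleotides, passed in either fit. Over all tested probe sets 1.06% passed downward without the block and 5.38% with it, so these counts do not set the genes apart from other probe sets. The mean of each of these genes was lower in null samples. The 6 Mcm genes code for the subunits of the ring that unwinds DNA at the fork. Mcm5 (1415945_AT) was at 6.84, 7.14 and 6.87 in null and 8.44, 6.96 and 7.83 in wild-type samples, and Mcm6 (1416251_AT) at 8.09, 8.15 and 8.29 in null and 9.31, 7.88 and 8.60 in wild-type samples. In both, null samples were close together and wild-type samples lay from inside or below the null range to far above it. With the block Mcm5 differed by −0.99 with a standard error of 0.28 (limma adjusted p = 0.0676) and Mcm6 by −0.57 with a standard error of 0.29 (limma adjusted p = 0.273). The remaining subunits differed with the block by −0.71 (Mcm2, 1448777_AT), −0.61 (Mcm3, 1426653_AT), −0.08 (Mcm4, 1416214_AT) and −0.70 (Mcm7, 1416030_A_AT), with adjusted p-values between 0.0813 and 0.831 in limma.

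Mcm4 had the same mean of 8.70 in each group, with null samples between 8.67 and 8.71 and wild-type samples between 8.28 and 9.03. Pcna (1417947_AT), the clamp that holds DNA polymerase on its template, was at 10.06, 10.35 and 10.61 in null and 11.04, 10.09 and 10.56 in wild-type samples. Cdc6 (1417019_A_AT), which loads the Mcm ring at origins, was at 5.70, 5.85 and 6.27 in null and 6.92, 5.79 and 6.05 in wild-type samples. For Pcna and Cdc6, null replicate 3 was the highest null sample, whereas for most mitotic genes it was the lowest of all. Rrm1 (1415878_AT) and Rrm2 (1448226_AT), the subunits of ribonucleotide reductase, differed by −0.82 and −0.25 with the block, and Tk1 (1416258_AT), the thymidine kinase of dividing cells, by −1.01 (limma adjusted p = 0.062, 0.679 and 0.0584). These adjusted p-values lie close above the threshold for Rrm1 and Tk1, and a fall in these genes was not shown.

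Comparing null and wild type within each technical set gave 2 estimates that share no array. In the brighter set, null replicates 1 and 2 against wild-type replicate 1, all 36 genes were lower in null samples, with a median of −1.46. In the dimmer set, null replicate 3 against wild-type replicates 2 and 3, 31 were lower, with a median of −0.99. Of all 22519 tested probe sets, 11390 were lower in null samples of the brighter set and 11500 in those of the dimmer set. The 16 genes of the kinase, checkpoint and spindle groups were lower in each set with the exception of Mad2l1, with medians of −1.58 and −1.28 for the kinase and checkpoint group and −1.67 and −1.28 for the spindle group. For the 8 licensing and clamp genes the brighter set gave a median of −1.17 and the dimmer set one of −0.0047, with 4 of 8 lower. Mcm4, Mcm6, Pcna and Cdc6 were higher in null replicate 3 than in the mean of its wild-type samples, by 0.18, 0.05, 0.28 and 0.35.

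**Figure D3:**
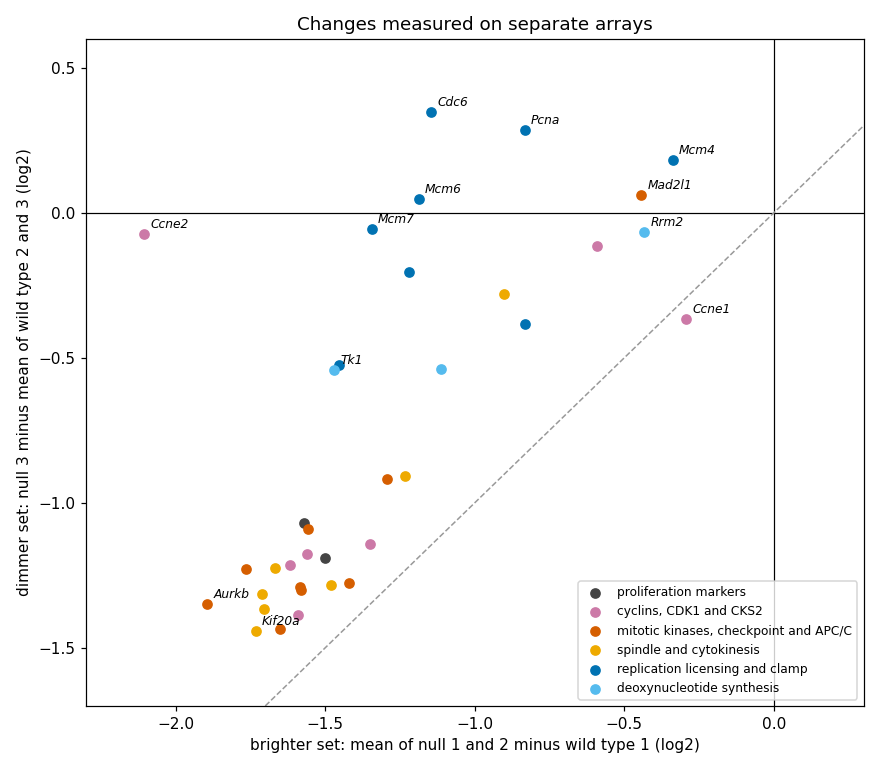
Each point is 1 of the 36 genes, with the change in the brighter set on the horizontal and the change in the dimmer set on the vertical axis (log2, null minus wild type), coloured by function, and a dashed line where they are equal. Kinase, checkpoint and spindle genes lie mostly near −1.6 and −1.3, with Bub1b, Racgap1, Anln and Mad2l1 closer to 0 on both axes, and the licensing and clamp genes have a median of −0.0047 on the vertical axis.

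The spread among wild-type samples was shared by replication and mitosis genes, and the distance between these groups of genes was nearly constant in wild type. The mean of the 16 kinase, checkpoint and spindle genes minus the mean of the 8 licensing and clamp genes, set to 0 at the wild-type mean, was −0.04, −0.05 and 0.09 on wild-type replicates 1, 2 and 3. It was −0.48, −0.46 and −1.04 on null replicates 1, 2 and 3, a mean of −0.66 ± 0.332 (SD, n = 3) against a wild-type SD of 0.0746. All null samples thus lay below all wild-type samples on this measure, including wild-type replicate 2, whose overall level of these 36 genes was close to that of the null samples. Within the brighter set the difference was −0.43, and within the dimmer set −1.06. With the 3 deoxynucleotide genes added to the replication side, the null samples stood at −0.52, −0.47 and −0.94 and the wild-type samples between −0.05 and 0.05. This measure was chosen after the values were seen and is given without a test. With the block 15 of the 16 genes had passed downward and 0 of the 8 had, so this measure is not a separate result.

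**Figure D4:**
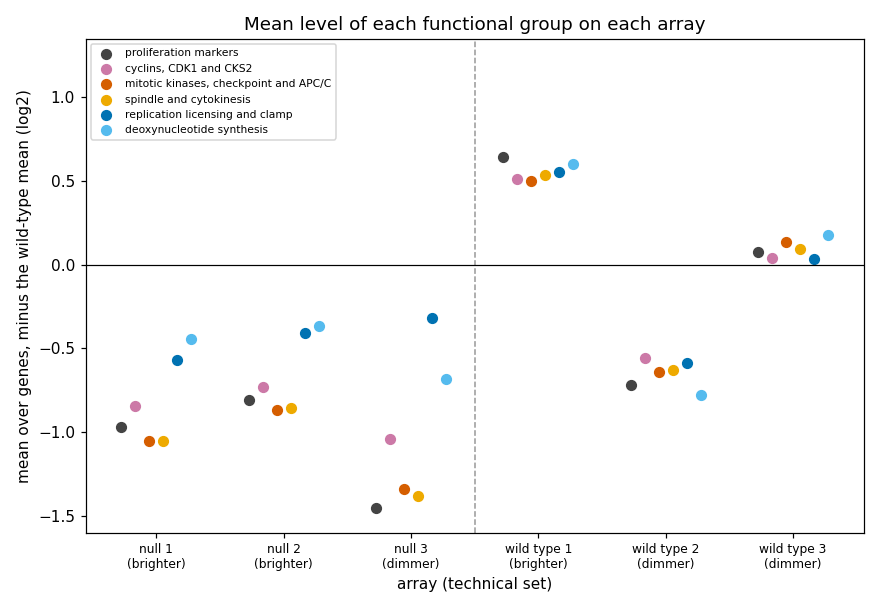
Mean log2 level of each functional group on each array, minus the mean of the 3 wild-type arrays, with the groups as colours and the technical set under each array. On the wild-type arrays the colours move up and down together, and on the null arrays the licensing, clamp and deoxynucleotide genes lie above the mitotic genes.

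The elements were searched in the promoter window, from 250 bases before to 50 after the start site. RefSeq windows were found for 31 of the 36 genes. A CHR (TTTGAA) was present in 14 of them (45.2%), against 17.9% of 32851 windows of this length over all genes. A CCAAT box was present in 24 (77.4%, against 37.4%) and an E2F site in 6 (19.4%, against 2.26%). The 14 genes with a CHR differed by a median of −1.36 with the block (range −1.54 to −0.59). Of these 14, 13 passed the threshold downward, against 5.38% of all tested probe sets. Mcm2 was the one that did not pass. The 17 genes without a CHR differed by a median of −0.70 (range −1.49 to −0.19), so that the ranges overlap, with 5 of 17 past the threshold. Those 5 were Ccnb1, Birc5, Bub1, Cenpe and Nusap1, each a gene of mitosis. A split by the CCAAT box gave a difference of similar size. The 24 genes with a CCAAT box differed by a median of −1.33 with the block, and 15 passed. The 7 genes without it differed by a median of −0.59, and 3 passed. Of the 14 genes with a CHR, 13 also had a CCAAT box.

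Of the 6 genes with an E2F site, Cdk1 also had a CHR and the others did not. These others (Mcm3, Mcm5, Mcm6, Mcm7 and Cdc6) differed by a median of −0.61 with the block. Of these, 0 of 5 passed the threshold, against 5.38% of all tested probe sets downward. At that share a count of 0 of 5 does not set them apart from other probe sets. The mean of the 14 genes with a CHR minus the mean of the 17 without was set to 0 at the wild-type mean. It was −0.40, −0.33 and −0.58 on null replicates 1, 2 and 3, and −0.0030, −0.03 and 0.04 on wild-type replicates 1, 2 and 3. Neither the promoter search nor this measure was planned, and no test was run on them. Of the 14 genes with a CHR, 13 had passed with the block, so this measure is not a separate result. Elements and functional groups overlap, since most CHR genes act in mitosis, so the element and the function of a gene cannot be told apart here. Most genes with a CHR also have a CCAAT box, so the CHR and the CCAAT box cannot be told apart either. A match of letters is a description of the window and not a bound site. Only the letters given were searched, so a window without a match can still hold an element spelled otherwise.

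**Figure D5:**
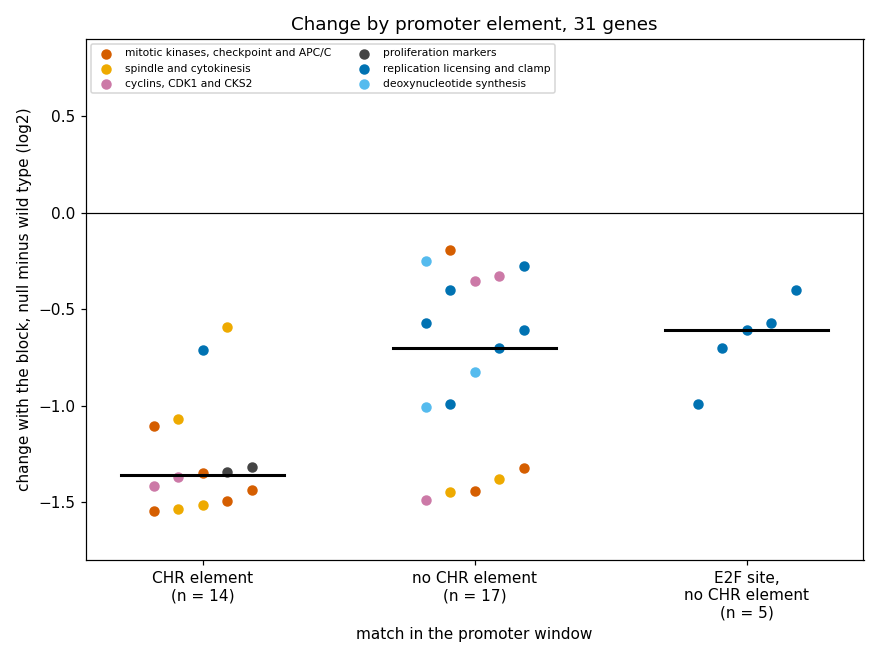
Log2 change with the technical set as a block (vertical axis) of the 31 genes with a promoter window, by the element found in it, coloured by function, with the median as a black line. The 14 genes with a CHR element have a median of −1.36 and the 17 without it −0.70. The third column repeats the 5 genes of the second that have an E2F site.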

How the data were processed

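The authors deposited log2 expression values, 1 per probe set and array, whose scale was judged from their range. Per the submitters' processing notes GCOS was used, and for background correction, normalization and summary the method is not given in the sources used here. At equal rank, values of the 6 arrays never lay more than 0.089 apart, so they were used as deposited. Leaving out 64 control probe sets, the 22519 of 45037 probe sets whose mean reached the median of 4.83 were tested, among them all 36 genes. The difference between null and wild type came from limma 3.58.1 under R 4.3.3 (lmFit, then eBayes with a trend in intensity, two-sided, without covariates), with Benjamini-Hochberg adjustment across the tested probe sets at 0.05. The fit was also tested on simulated data. The median standard error over all tested probe sets was 0.128 log2 units without the block, limited by the number of arrays. Over the 36 genes it was larger, at 0.300 without the block and 0.215 with it. The technical sets part at the widest gap (0.131) between array means of 18 hybridization control probe sets. Figures used matplotlib 3.10.9.

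By rule, all 36 genes are named. The members, lists and alternatives were chosen with earlier results of these data known. Planned lists of other cell cycle genes and cell type markers, further probe sets of the same genes and averages over probe sets could not be used without a table that names probe sets. Same-numbered arrays deviated from their group means with correlations of 0.211, −0.124 and 0.371 for replicates 1, 2 and 3, so the numbers were taken as labels and not as pairs.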

Additional observations from a re-analysis of the deposited data

How the results depend on the processing

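Without a block 864 probe sets passed (limma), 4 of them among the 36 genes and all downward. When the technical set was a block 2466 passed, 21 of them members, and with that block and no filter 2098 and 21. Null replicates 1 and 2 were the closest pair of arrays, with an SD of their difference over the tested probe sets of 0.228. The next closest pair, wild-type replicates 2 and 3, had an SD of 0.318. Whether null replicates 1 and 2 are independent samples is not known. Averaging these 2 null arrays left 119 probe sets and 0 members. Without the intensity trend 2 members passed, and Aurka and Aurkb lost their calls (limma adjusted p = 0.0646 and 0.0642). With an offset of 16 on the linear scale 3 members passed and the call of Aurkb was lost (limma adjusted p = 0.0538). With the stricter filter 5 of the 27 members tested passed, Aurkb not being among those tested, and with centring on the median 6 of 36, and both settings added Ccnb2 and Prc1. Leaving out 1 array gave 85 to 592 probe sets and 0 to 21 members without the block. With it the counts were 928 and 16 without null replicate 1, 891 and 17 without null replicate 2, 464 and 7 without null replicate 3, 123 and 0 without wild-type replicate 1, 2909 and 31 without wild-type replicate 2, and 2418 and 20 without wild-type replicate 3. With the replicate number as a block 857 probe sets and 3 members passed, and the call of Aurka was lost (limma adjusted p = 0.0653). No member passed upward under any of these settings. The sign turned only for genes whose change had not passed. Over omissions of 1 array without the block, Mcm4 ran from −0.21 to 0.16, Pcna from −0.46 to 0.015, Rrm2 from −0.50 to 0.20, Cdc6 from −0.55 to 0.019 and Mad2l1 from −0.31 to 0.13. Averaging null replicates 1 and 2 put Mcm4 at 0.0041. With the block and without wild-type replicate 1, Mcm4 was at 0.18, Mcm6 at 0.047, Pcna at 0.28, Cdc6 at 0.35 and Mad2l1 at 0.061. The fits with the block and an array left out, and with the block and no filter, were chosen after seeing the data. Averages over the probe sets of a gene, and the planned list of other cell cycle genes, were not run.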
